A study of Mus musculus with 6 samples.

Results

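The TGF-beta and BMP pathway was followed through 46 genes for its ligands, receptors, SMAD proteins, antagonists and targets, in bulk RNA sequencing of mouse bEND.3 cells. The genes were chosen by name for their known roles, with earlier results of these data known, and were found by symbol in the deposited gene table. Of the 46 genes, 45 were among the 15398 genes of the table, and 40 had enough counts to be tested among 11722 tested genes. Tgfb2, Acvrl1, Fst, Bmper and Grem1 were in the table with too few counts for the test, and Nog is not analysed here. The cells stably expressed circSlc17a5, a circular RNA of the Slc17a5 gene by its name (3 libraries), or carried the corresponding empty vector (control, 3 libraries). bEND.3 is a mouse line described as brain endothelial. Every library came from a stable line, so cells of both groups had been through the making of such a line. The labels state neither whether the lines were clones or pools nor if each replicate was a culture of its own. The p-values therefore measure the spread between these libraries alone, and that spread may be technical.

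TGF-beta is secreted in a latent complex, in which latent TGF-beta binding proteins hold it in the extracellular matrix until it is released. Free TGF-beta and activin bind pairs of type II and type I receptor kinases that phosphorylate SMAD2 and SMAD3, while BMPs use other receptors that phosphorylate SMAD1, SMAD5 and SMAD9. Both sets of SMADs join SMAD4 and enter the nucleus. SMAD6, SMAD7 and the SMURF ubiquitin ligases dampen the signal, and the ID genes are classical BMP targets. In blood vessels the BMP arm is known from the receptor ALK1, encoded by Acvrl1, which responds to circulating BMPs and is mutated in a human disease of malformed vessels.

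Library totals lay between 16848513 and 17146112 counts in circSlc17a5 cells and between 16989017 and 17600230 counts in control cells. Slc17a5 itself, counted as a gene without telling circular from linear RNA, had 605, 495 and 492 counts in circSlc17a5 libraries 1, 2 and 3, against 391, 358 and 380 in control libraries 1, 2 and 3. Its fold change was 1.36 with no overlap between the groups (edgeR, adjusted p = 0.0133), and the call held in 4 of the 6 fits that left out 1 library each (highest adjusted p = 0.0608). On the first principal component, control library 1 (-5.49) lay nearest to the circSlc17a5 libraries (26.4, 18.9 and 15.6), apart from control libraries 2 and 3 (-33.95 and -21.5). The defining endothelial markers went against the label of the line. Their summed level, over 8 of 9 listed markers found in the table, was 0.69 to 1.02 TPM in circSlc17a5 libraries and 0.46 to 0.82 TPM in control libraries, with no marker at 0 in every library. TPM is scaled by gene length and is used here only to compare levels between genes. Simple epithelial markers, 5 of 5 in the table, summed to between 1597 and 1648 TPM in circSlc17a5 libraries and between 1547 and 1918 TPM in control libraries. The sum over 11 mural and fibroblast markers was 66.4 to 83.5 TPM in circSlc17a5 libraries and 51.1 to 86.6 TPM in control libraries. Over 4 leukocyte markers it was 346 to 394 TPM in circSlc17a5 libraries and 263 to 312 TPM in control libraries. Only 1 of these 4 had enough counts to be tested. That gene had a log2 fold change of 0.23, overlapped between the groups in normalised counts and did not pass the edgeR test. With GC content and transcript length taken into account, its log2 fold change was 0.36 and it passed as higher. The part of these differences in the results below was not tested.

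The pathway genes were mixed in direction. Of the 40 tested genes, 14 passed the test (35.0%), against 22.0% of all tested genes. Bmp6, Acvr2a, Acvr1b, Smad5, Smad4 and Smurf2 rose (15.0% of the 40, against 11.8% of all genes), and Atoh8, Pmepa1, Smad6, Smad9, Bmp2, Ltbp3, Tgfb3 and Id1 fell (20%, against 10.2% of all genes). Because the pathway genes were chosen with earlier results of these data known, these shares describe the list and are no test of it. A gene was called risen or fallen at an adjusted p under 0.05 by edgeR's quasi-likelihood test, adjusted over all 11722 genes. The median log2 fold change over the 40 genes was 0.007, with 20 positive and 20 negative values, beside a median of -0.002 over all tested genes. Normalised CPM, the count scaled by library size and TMM, of the 2 groups did not overlap for 19 of the 40 genes (47.5%), against 42.6% of all tested genes. Over all called genes, 99.3% of the risen and 96.6% of the fallen did not overlap, so a lack of overlap adds little to a call. Of the called pathway genes, the 6 risen and 6 of the 8 fallen (75.0%) did not overlap. By arm, 1 of 17 tested genes of the TGF-beta and activin arm rose and 3 fell, with a median of 0.02. In the BMP arm 2 of 16 rose and 5 fell, with a median of -0.16, and of 7 genes used by both arms 3 rose and 0 fell, with a median of 0.38. The difference between the arms was not tested.

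**Figure D1:**
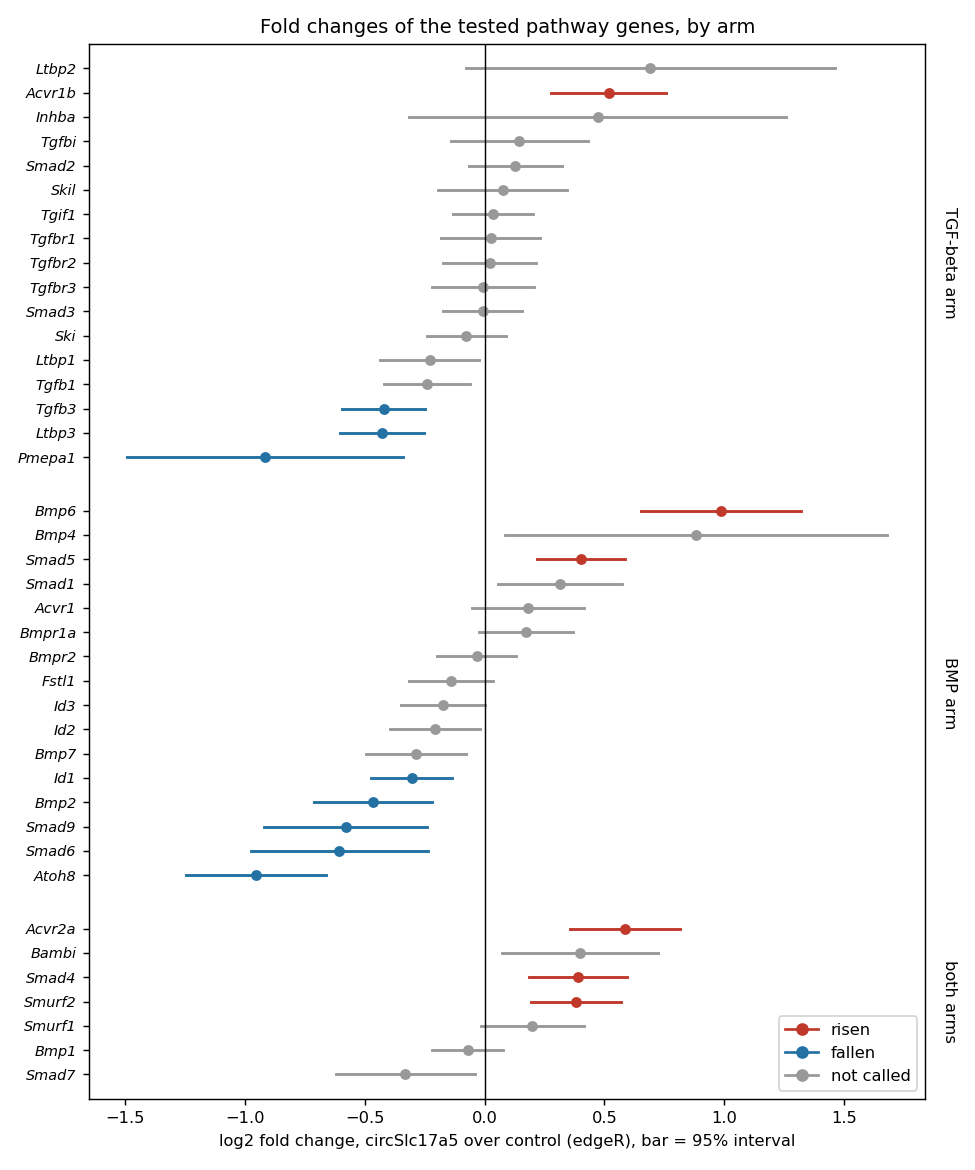
Log2 fold changes (circSlc17a5 over control, edgeR) of the 40 tested pathway genes, grouped by arm, with bars for 95% intervals. Values run from -0.95 for Atoh8 to 0.98 for Bmp6, and most intervals of genes that did not pass the test include values on both sides of 0.

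Levels of the pathway genes spanned several orders of magnitude. Over all 6 libraries Id3 averaged 324 TPM, Id1 238 TPM and Tgfb1 138 TPM, and these were the highest of the 45 genes. The co-repressor Tgif1 (67.8 TPM), the procollagen protease Bmp1 (44.6 TPM) and Ltbp3 (44.5 TPM) came next, and the last pair were indistinguishable within their spread over libraries. Among receptors Acvr1 averaged 18.9 TPM, Bmpr1a 10.2 TPM, Tgfbr3 7.70 TPM, Bmpr2 7.49 TPM, Acvr1b 7.12 TPM, Tgfbr2 6.12 TPM, Tgfbr1 2.96 TPM and Acvr2a 2.06 TPM. Acvrl1, the ALK1 receptor of endothelial cells, averaged 0.12 TPM, far under every other receptor in the group. Among receptor-activated SMADs, Smad3 led with 19.8 TPM, ahead of Smad5 (8.51 TPM), Smad2 (5.76 TPM), Smad1 (5.06 TPM) and Smad9 (0.91 TPM). Bmp2 (9.87 TPM) and Bmp7 (6.29 TPM) were the BMP ligands with the highest levels, and Bmp4 averaged 0.39 TPM.

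**Figure D2:**
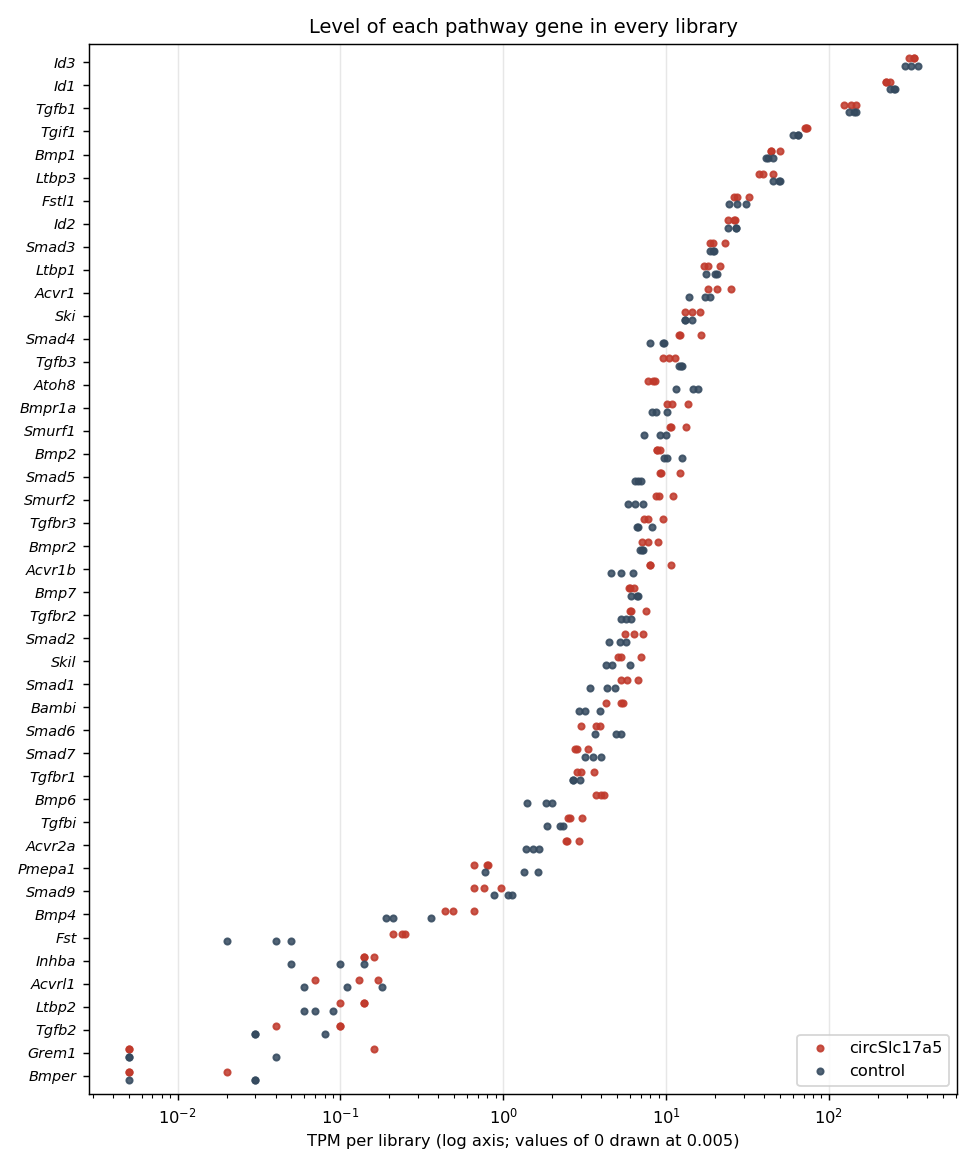
TPM of each of the 45 pathway genes in every library on a log axis, sorted by the mean over 6 libraries, with values of 0 drawn at 0.005. Id3, Id1 and Tgfb1 stand highest, and Acvrl1, Ltbp2, Tgfb2, Grem1 and Bmper stand lowest.

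The calls of Atoh8, Ltbp3, Tgfb3, Bmp6 and Acvr2a held under all 15 alternative settings tried. For 4 of these genes the RefSeq tables held the sequence before the transcription start (GRCm38.p6), and the 250 bases before that start are shown 5′ to 3′ on the gene's strand because SMAD proteins are known to bind short elements in promoters. Capitals mark the SMAD box, CAGAC on either strand (GTCTG on the other), and the first base of each marked box lay 119 bases before the start for Bmp6, 188 for Acvr2a and 58 for Ltbp3.
Atoh8, chr6:72235578-72235827, minus strand: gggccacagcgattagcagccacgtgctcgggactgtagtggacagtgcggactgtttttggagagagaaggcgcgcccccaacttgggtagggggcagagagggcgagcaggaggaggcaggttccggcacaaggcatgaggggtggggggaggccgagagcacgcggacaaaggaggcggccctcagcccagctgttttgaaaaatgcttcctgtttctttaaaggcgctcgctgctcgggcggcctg
Ltbp3, chr19:5740650-5740899, plus strand: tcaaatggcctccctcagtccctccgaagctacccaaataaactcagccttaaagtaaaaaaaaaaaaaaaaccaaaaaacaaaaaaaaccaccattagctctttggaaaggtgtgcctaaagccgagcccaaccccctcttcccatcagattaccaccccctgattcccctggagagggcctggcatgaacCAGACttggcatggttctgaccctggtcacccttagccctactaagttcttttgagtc
Bmp6, chr13:38345466-38345715, plus strand: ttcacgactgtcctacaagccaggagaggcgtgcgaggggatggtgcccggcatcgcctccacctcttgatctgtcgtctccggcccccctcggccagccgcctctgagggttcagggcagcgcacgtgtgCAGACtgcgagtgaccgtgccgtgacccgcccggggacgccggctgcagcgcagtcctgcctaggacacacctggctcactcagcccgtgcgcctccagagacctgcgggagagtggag
Acvr2a, chr2:48813859-48814108, plus strand: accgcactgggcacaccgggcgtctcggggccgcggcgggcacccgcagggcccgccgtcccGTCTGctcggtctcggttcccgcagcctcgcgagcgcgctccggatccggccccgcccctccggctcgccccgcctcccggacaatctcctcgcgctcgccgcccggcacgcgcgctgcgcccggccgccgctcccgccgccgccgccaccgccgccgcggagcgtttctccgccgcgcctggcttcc
Bmp6 and Acvr2a, which rose, and Ltbp3, which fell, each held 1 box, and the Atoh8 window held none. Over the pathway 31 genes had such a window, and 15 of them held CAGAC or GTCTG, a motif found in 45.5% of 9414 tested genes with a window and in 42.2% of all 32851 windows. GGCGCC, a GC-rich element that reads the same on both strands, was in the windows of 10 of the 31 genes, 19.9% of tested genes and 9.59% of all windows. The palindrome GTCTAGAC, which holds neither CAGAC nor GTCTG, was in 0 of the 31 genes and in 0.255% of tested genes. A match is a description of the letters and not a binding site.

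Tgfb3 and Ltbp3, a TGF-beta ligand and a protein that holds latent TGF-beta in the matrix, were the called genes of TGF-beta supply, and both fell. Tgfb3 (chr12:86056743-86079754, as the files give it) had 31.6, 33.3 and 30.5 CPM in circSlc17a5 libraries 1, 2 and 3, against 41.9, 43.7 and 42.1 CPM in control libraries 1, 2 and 3. Every circSlc17a5 value was under every control value, and the fall was 1.34-fold (log2 fold change -0.42, SE 0.0779, edgeR adjusted p = 0.00851). Ltbp3 (chr19:5740900-5758536) had 176, 166 and 174 CPM in circSlc17a5 libraries, against 209, 248 and 237 CPM in control libraries. The groups did not overlap, and the fall was again 1.34-fold (log2 fold change -0.43, SE 0.0793, edgeR adjusted p = 0.00861). Ltbp3 overlaps the listed span of another gene, and how reads were divided between overlapping genes is not stated in the sources at hand. In bulk RNA a lower level in each cell and fewer cells with the transcript cannot be told apart.

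Tgfb1, the ligand with the highest level, had 253, 242 and 267 CPM in circSlc17a5 libraries and 272, 321 and 307 CPM in control libraries. Its groups did not overlap, and its log2 fold change of -0.24 (95% interval -0.42 to -0.06) did not pass edgeR's test (adjusted p = 0.0568), while DESeq2 gave an adjusted p of 0.035. With GC content and transcript length taken into account, the log2 fold change of Tgfb1 was -0.10 (edgeR adjusted p = 0.223). Ltbp1, another latent TGF-beta binding protein, was at 98.0 ± 4.46 CPM in circSlc17a5 cells and 114.9 ± 14.0 CPM in control cells (SD, n = 3 each), with an edgeR adjusted p of 0.0941. Ltbp1 passed the test at a log2 fold change of -0.39 when GC content and transcript length were taken into account (edgeR adjusted p = 0.0211). Inhba, the activin A subunit, averaged 0.94 CPM in circSlc17a5 cells and 0.67 CPM in control cells, and Ltbp2 averaged 0.80 CPM in circSlc17a5 cells and 0.49 CPM in control cells. Neither passed the test (edgeR adjusted p = 0.34 for Inhba and 0.165 for Ltbp2). Tgfb2 had 21 counts over the circSlc17a5 libraries and 14 over the control libraries, a ratio of 1.53 with an exact 95% interval of 0.742 to 3.25 that covers counting error only.

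Of the TGF-beta and activin receptors, Acvr1b and Acvr2a rose and the 3 TGF-beta receptors did not pass the test. Tgfbr1 and Tgfbr2, the type I and type II receptors, had log2 fold changes of 0.03 (95% interval -0.18 to 0.23) and 0.02 (-0.17 to 0.22). The co-receptor Tgfbr3 had -0.01 (-0.22 to 0.20). The intervals of these 3 receptors all included 0 and reached little beyond 0.2 on either side. Acvr1b, the activin and nodal type I receptor, had 39.7, 33.7 and 33.4 CPM in circSlc17a5 libraries, against 28.1, 22.3 and 24.3 CPM in control libraries. It rose 1.43-fold with no overlap (log2 fold change 0.52, SE 0.109, edgeR adjusted p = 0.0131), and the call was lost without circSlc17a5 library 1 or without control library 3 (highest adjusted p = 0.0644). Acvr2a, a type II receptor for activins and several BMPs, had 14.2, 13.5 and 13.5 CPM in circSlc17a5 libraries, against 8.97, 8.71 and 9.84 CPM in control libraries. All its circSlc17a5 values were above all its control values, and the rise was 1.5-fold (log2 fold change 0.59, SE 0.103, edgeR adjusted p = 0.00703). Acvr2a (chr2:48814109-48903264) overlaps the listed span of Orc4.

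BMP ligands moved in opposite directions. Bmp6 (chr13:38345716-38500314), a BMP known for its part in iron sensing by liver endothelium, had 10.2, 10.3 and 11.1 CPM in circSlc17a5 libraries, against 4.11, 5.86 and 6.01 CPM in control libraries. These came from 180 to 189 counts per circSlc17a5 library and from 70 to 102 counts per control library. The groups lay well apart, and Bmp6 rose 1.98-fold, the largest rise among the tested pathway genes (log2 fold change 0.98, SE 0.151, edgeR adjusted p = 0.00405). Bmp6 overlaps the listed span of Txndc5. Bmp2, a ligand of bone and heart development, had 26.2, 29.7 and 30.7 CPM in circSlc17a5 libraries, against 34.6, 39.4 and 45.5 CPM in control libraries. It fell 1.38-fold with no overlap (log2 fold change -0.47, SE 0.111, edgeR adjusted p = 0.0199), and the call was lost without circSlc17a5 library 1 or 2 or without control library 3 (highest adjusted p = 0.0927).

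Bmp7 averaged 20.3 ± 0.742 CPM in circSlc17a5 cells and 24.7 ± 2.24 CPM in control cells (SD, n = 3 each). Its groups did not overlap and its log2 fold change of -0.28 did not pass the test (edgeR adjusted p = 0.0526). Bmp4 had 14, 14 and 20 counts in circSlc17a5 libraries, against 7, 6 and 12 counts in control libraries. At this depth its log2 fold change of 0.88 did not pass the test (95% interval 0.08 to 1.68, edgeR adjusted p = 0.0976). Bmp1, which is a protease and not a BMP ligand, was at 158 ± 0.913 CPM in circSlc17a5 cells and 166 ± 6.97 CPM in control cells (SD, n = 3 each; edgeR adjusted p = 0.457).

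No BMP receptor passed the test. Bmpr1a, a type I receptor, had a log2 fold change of 0.17 (95% interval -0.02 to 0.37), Bmpr2, the type II receptor linked to hereditary pulmonary hypertension, had -0.03 (-0.20 to 0.13), and Acvr1 had 0.18 (-0.05 to 0.41). Acvrl1 had 7, 10 and 4 counts in circSlc17a5 libraries and 11, 7 and 4 counts in control libraries, and its ratio of 0.973 (exact 95% interval 0.509 to 1.86) leaves changes of either sign possible at this depth.

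Of the SMADs, the shared SMAD and one BMP SMAD rose and another BMP SMAD fell. Smad5 had 69.3, 59.4 and 60.4 CPM in circSlc17a5 libraries, against 46.1, 48.0 and 49.1 CPM in control libraries. The groups did not overlap, and Smad5 rose 1.32-fold (log2 fold change 0.40, SE 0.0824, edgeR adjusted p = 0.0122). The call was lost without circSlc17a5 library 1 (adjusted p = 0.057) and with the correction for GC content and length (0.0651). Smad4, the partner of all receptor-activated SMADs, had 108.7, 91.2 and 91.0 CPM in circSlc17a5 libraries, against 76.8, 67.7 and 77.6 CPM in control libraries. It rose 1.31-fold with no overlap (log2 fold change 0.39, SE 0.0919, edgeR adjusted p = 0.0193), and the call was lost without circSlc17a5 library 1 or 2 or without control library 2 or 3 (highest adjusted p = 0.0849). Smad9, the least expressed BMP SMAD here, had 4.47, 3.44 and 3.98 CPM in circSlc17a5 libraries, against 6.28, 5.38 and 6.12 CPM in control libraries. The groups did not overlap, and Smad9 fell 1.49-fold (log2 fold change -0.58, SE 0.154, edgeR adjusted p = 0.0279). The call of Smad9 was lost on the deposited FPKM values, without any 1 of the circSlc17a5 libraries, without control library 3, and without control library 1 and circSlc17a5 library 2 together (highest adjusted p = 0.118).

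Smad1, the other BMP SMAD, averaged 15.9 ± 0.986 CPM in circSlc17a5 cells and 12.8 ± 1.70 CPM in control cells (SD, n = 3 each), with no overlap and an edgeR adjusted p of 0.0747. The TGF-beta SMADs did not pass the test: Smad2 had a log2 fold change of 0.13 (95% interval -0.07 to 0.32) and Smad3 had -0.01 (-0.17 to 0.15).

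**Figure D3:**
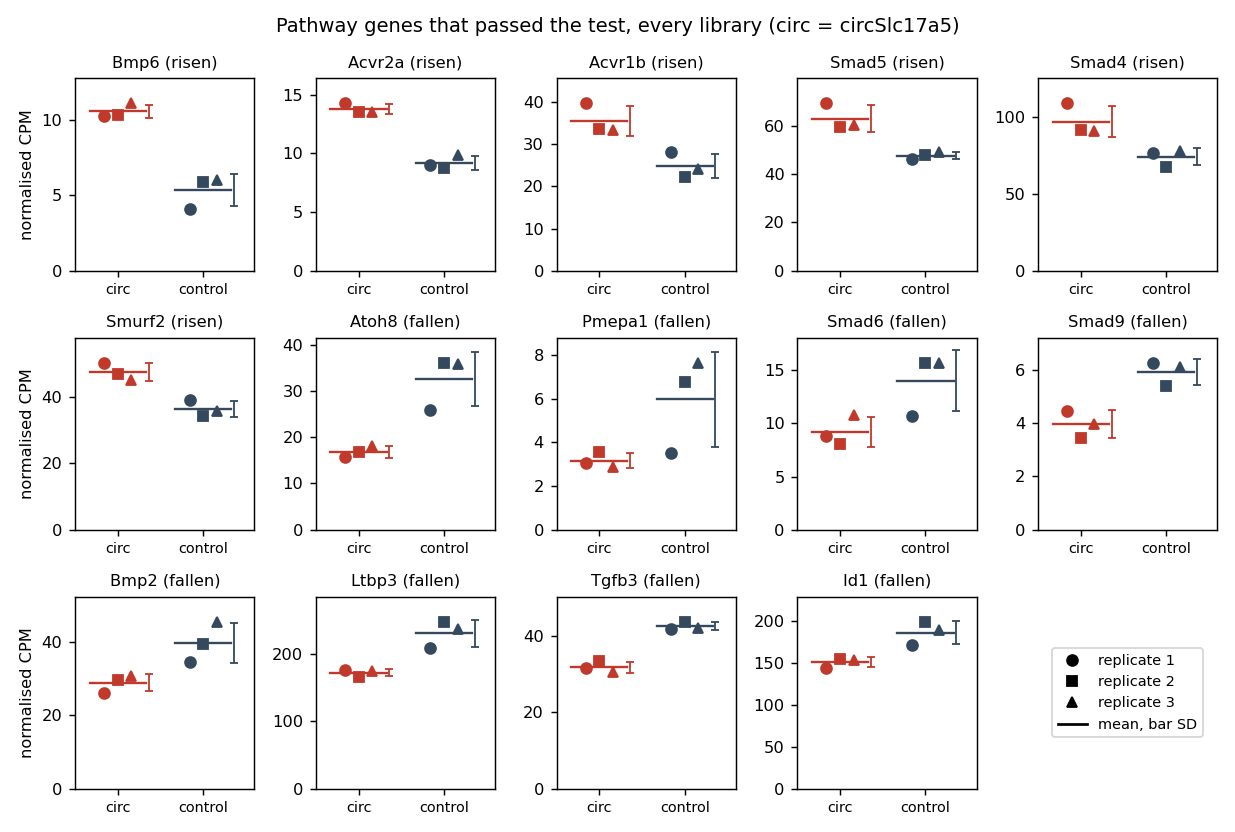
Normalised CPM of the 14 pathway genes that passed the test, in each library, with circSlc17a5 libraries left of control libraries; lines are means, bars are SD (n = 3) and symbols give the replicate number. The groups separate for 12 of the 14 genes, and they overlap for Pmepa1 and Smad6, where control library 1 lies near the circSlc17a5 values. Over all called genes the groups separate for 99.3% of the risen and 96.6% of the fallen.

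Inhibitors of signalling were also split. Smad6, an inhibitory SMAD and itself a BMP target, had 8.78, 8.09 and 10.8 CPM in circSlc17a5 libraries, against 10.7, 15.7 and 15.7 CPM in control libraries. The groups overlapped between circSlc17a5 library 3 and control library 1, and Smad6 fell 1.52-fold (log2 fold change -0.61, SE 0.167, edgeR adjusted p = 0.0303). Smad6 lost its call on the FPKM values, without circSlc17a5 library 1 or 2 and without control library 2 or 3 (highest adjusted p = 0.118). Pmepa1, a membrane protein that retains receptor-activated SMADs and is induced by TGF-beta, had 3.07, 3.56 and 2.87 CPM in circSlc17a5 libraries, against 3.52, 6.77 and 7.66 CPM in control libraries. Control library 1 lay within the circSlc17a5 values, and Pmepa1 fell 1.89-fold (log2 fold change -0.91, SE 0.26, edgeR adjusted p = 0.0341). Pmepa1 lost its call by limma-voom, on the FPKM values, and without any 1 library other than control library 1 (highest adjusted p = 0.134). Smurf2, a ubiquitin ligase of receptors and SMADs, had 50.4, 46.9 and 45.1 CPM in circSlc17a5 libraries, against 39.2, 34.3 and 35.8 CPM in control libraries. Smurf2 rose 1.3-fold with no overlap (log2 fold change 0.38, SE 0.085, edgeR adjusted p = 0.016), and the call was lost without circSlc17a5 library 1 or 2 or without control library 3 (highest adjusted p = 0.0754).

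Smad7, an inhibitory SMAD that acts on both arms, averaged 10.6 ± 1.35 CPM in circSlc17a5 cells and 13.3 ± 1.63 CPM in control cells (SD, n = 3 each; edgeR adjusted p = 0.0894). Bambi, a decoy receptor that lacks a kinase, averaged 8.68 ± 0.954 CPM in circSlc17a5 cells and 6.59 ± 1.01 CPM in control cells, without overlap between the groups and with an edgeR adjusted p of 0.0741. Log2 fold changes of Smurf1, Skil, Ski and Tgif1, the last 3 being nuclear co-repressors, lay between -0.08 and 0.20, and none passed the test. Fstl1, a secreted follistatin-like protein, had a log2 fold change of -0.14 (edgeR adjusted p = 0.217). Fst, which binds and neutralises activins, had 10 counts in each circSlc17a5 library, against 1, 2 and 2 counts in control libraries. Its ratio of summed counts was 6.12 (exact 95% interval 2.35 to 20.2, counting error only), and with no filter on low counts edgeR gave an adjusted p of 0.0135. Bmper had 1 count over the circSlc17a5 libraries and 4 over the control libraries, and Grem1 had 4 counts, all in circSlc17a5 library 2, and 1 count over the control libraries.

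The 2 called targets, both of the BMP arm, fell. Atoh8 (chr6:72206177-72235577), a transcription factor that endothelial cells induce through ALK1 and SMAD1 and SMAD5, had 15.7, 16.7 and 18.2 CPM in circSlc17a5 libraries, against 25.8, 36.1 and 35.9 CPM in control libraries. These came from 280 to 310 counts per circSlc17a5 library and from 440 to 609 counts per control library. Control library 1 was the lowest control and still above all circSlc17a5 libraries, and Atoh8 fell 1.94-fold, the largest fall among the tested pathway genes (log2 fold change -0.95, SE 0.132, edgeR adjusted p = 0.00232). Id1, an inhibitor of basic helix-loop-helix factors, had 144 to 155 CPM in circSlc17a5 libraries and 171 to 199 CPM in control libraries. Id1 fell 1.24-fold with no overlap (log2 fold change -0.30, SE 0.0771, edgeR adjusted p = 0.0242). The call of Id1 was lost with the correction for GC content and length (log2 fold change -0.13, adjusted p = 0.119) and without any 1 library other than control library 1 (highest adjusted p = 0.103).

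Id2 and Id3, of the same family, had lower CPM in every circSlc17a5 library than in every control library and did not pass the test. Id2 averaged 25.1 ± 1.70 CPM in circSlc17a5 cells and 29.0 ± 0.666 CPM in control cells, with an edgeR adjusted p of 0.0961. Id3 averaged 217 ± 13.9 CPM in circSlc17a5 cells and 245 ± 17.5 CPM in control cells (SD, n = 3 each), with an edgeR adjusted p of 0.136. With the correction for GC content and length the log2 fold changes were -0.12 for Id2 and -0.02 for Id3 (edgeR adjusted p = 0.28 and 0.838). Tgfbi, a matrix protein induced by TGF-beta, averaged 6.45 CPM in circSlc17a5 cells and 5.83 CPM in control cells (edgeR adjusted p = 0.422).

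Called genes of this pathway differed in GC content and length, which also separate risen from fallen genes over the whole table. The 6 risen pathway genes had a median transcript GC content of 48.3% and a median length of 4005.5 bases, and the 8 fallen ones 54.9% and 3469 bases. Over all tested genes the medians were 48.3% and 4431 bases for risen genes, and 53.5% and 2070 bases for fallen genes. With an offset for both properties in the edgeR fit, 5 pathway genes rose and 11 fell, against 10.2% and 11.7% of all tested genes, and the median log2 fold change of the 40 became -0.11. Smad5 and Id1 no longer passed, and Ltbp1, Bmp7, Bmpr2 and Fstl1 passed as lower, with log2 fold changes of -0.39, -0.32, -0.30 and -0.22 (edgeR adjusted p = 0.0211, 0.0308, 0.0376 and 0.0325). The part of GC content and length in the fold changes was otherwise not tested. Control library 1 was the control nearest to the circSlc17a5 mean for 9 of the 14 called pathway genes (64.3%), against 64.7% of all 2584 called genes. By direction these were 7 of the 8 fallen pathway genes and 2 of the 6 risen ones.

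**Figure D4:**
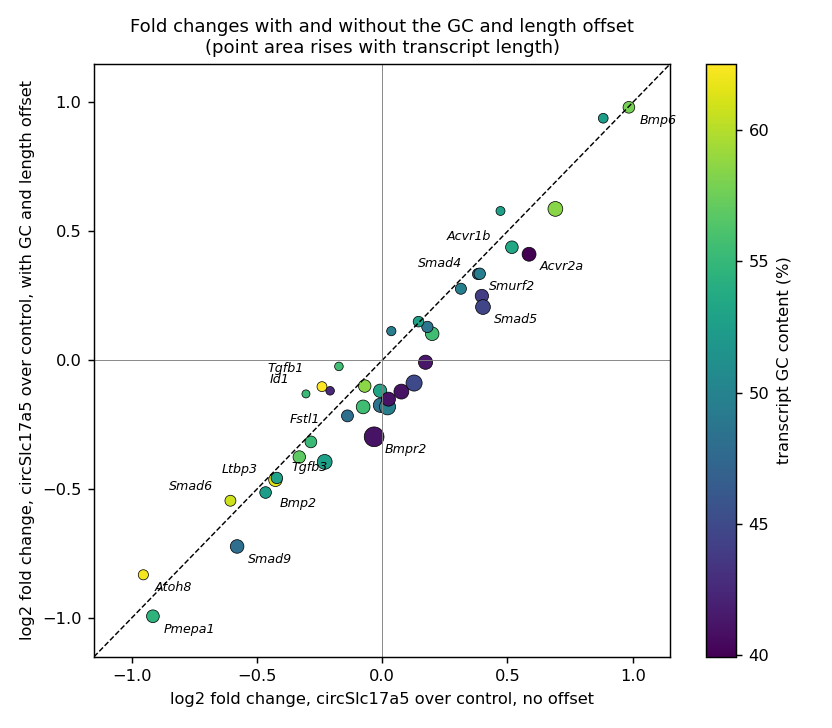
Log2 fold changes of the 40 tested pathway genes without (horizontal) and with (vertical) the offset for GC content and length, with colour for GC content and point size for transcript length. Smad5 and Id1 move toward 0 with the offset and lose their calls, and Bmpr2 moves to -0.30.

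In the authors' deposited table, which compares the groups with DESeq2, 7 pathway genes were higher and 8 lower at a q-value under 0.05. Of the 14 genes called here, 13 were among these 15. The share of all genes called in the authors' deposited table is not given here, so the 15 cannot be set against it. Tgfb1 and Fst were called in the authors' deposited table only (q = 0.0393 and 0.0494), and Smad9 was called here only (q = 0.061 in the authors' deposited table).

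Beyond the 46 genes, lists of other genes of the pathway held 99 genes of the table, of which 71 were tested. Of these 71, 11 rose and 6 fell (23.9% called, against 22.0% of all genes), with a median log2 fold change of 0.06. Of 12 tested TGF-beta targets 3 rose and 0 fell, with a median of 0.13. Ccn1, a matricellular protein also induced by the YAP pathway, had 105, 115 and 118 CPM in circSlc17a5 libraries, against 82.0, 73.3 and 84.5 CPM in control libraries, a rise of 1.41-fold without overlap (edgeR adjusted p = 0.005). Snai1, a repressor of epithelial genes, rose 1.24-fold (edgeR adjusted p = 0.0285).

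Of 8 tested BMP targets beyond the members, 1 rose and 1 fell, with a median of -0.13. Hey1, a Notch and BMP target, had 20, 17 and 22 counts in circSlc17a5 libraries, against 7, 6 and 11 counts in control libraries, and rose 2.35-fold (edgeR adjusted p = 0.0267). The call of Hey1 was lost by DESeq2 (adjusted p = 0.0713) and in 4 of the 6 fits that left out 1 library. Hey1 passed the filter on low counts only through its circSlc17a5 libraries, so its call is no added support. Cdx2, a homeobox factor of gut and trophoblast, fell 1.37-fold (edgeR adjusted p = 0.0282). Among 6 tested genes of latency and activation, Thbs1, which activates latent TGF-beta, rose 1.56-fold and Itgav, an integrin subunit that binds the latent complex, rose 1.42-fold (edgeR adjusted p = 0.0112 and 0.0306). Among 6 tested extracellular antagonists, Vasn, which binds TGF-beta, rose 1.32-fold and Crim1, which binds BMPs, fell 1.21-fold (edgeR adjusted p = 0.00708 and 0.0407). Vasn had 76.3 to 84.1 CPM in circSlc17a5 libraries and 60.4 to 61.0 CPM in control libraries.

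Among 22 tested intracellular regulators, Ctdspl, a phosphatase of a family that acts on SMADs, had 12.1, 12.1 and 13.2 CPM in circSlc17a5 libraries, against 18.1, 21.4 and 18.3 CPM in control libraries. Ctdspl fell 1.54-fold without overlap (edgeR adjusted p = 0.00538), the related Ctdsp1 fell 1.18-fold (0.0438) and the SUMO ligase Pias4 rose 1.21-fold (0.0491), a call that DESeq2 did not give (adjusted p = 0.0534). Of 10 SMAD partners, the acetyltransferase Ep300 rose 1.38-fold and Sp1 rose 1.2-fold, and the related acetyltransferase Crebbp fell 1.28-fold (edgeR adjusted p = 0.021, 0.0334 and 0.0376). Sp1 lost its call with the correction for GC content and length (adjusted p = 0.583). Of 3 tested other ligands Gdf15, a stress-induced member of the family, rose 1.33-fold, and of 4 tested other receptors and co-receptors Rgmb, a BMP co-receptor, fell 1.39-fold (edgeR adjusted p = 0.0416 and 0.0233). Of the 17 called genes of these lists, 4 kept their calls, among them Ccn1, Vasn and Ctdspl, with each library left out in turn, and the highest adjusted p of the others lay between 0.0589 for Thbs1 and 0.161 for Gdf15.

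At the level of transcripts, 83 of 120 listed transcripts of the pathway genes were tested and 0 passed edgeR's test, against 0.00708% of all 28266 tested transcripts. Of the 83, limma-voom called 0, against 1 of all 28266 tested transcripts, and DESeq2 called 17, against 3418 of all. An unadjusted edgeR p under 0.05 was found for 22 of the 83, and the share of all transcripts under it is not given here. The transcript estimates came from reads shared between transcripts with common exons, so shares below are estimates of the authors' program. Bmp1 transcript NM_001360021.1 was estimated at 0 counts in all circSlc17a5 libraries, against 437, 1691 and 1387 counts in control libraries. Its share of Bmp1 TPM was 0% in each circSlc17a5 library, against 16.5%, 62.1% and 47.8% in control libraries, while transcript NM_009755.3 held 94.7%, 94.4% and 92.8% in circSlc17a5 libraries, against 78.7%, 36.3% and 49.1% in control libraries. Groups did not overlap in either share, and edgeR gave adjusted p = 0.171 for NM_001360021.1 and 0.312 for NM_009755.3, where DESeq2 gave 3.63e-18 and 0.0437. Values of 0 in an estimated count can be a failed division of reads, and Bmp1 as a gene did not pass the test.

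Bmpr1a transcript XM_006518469.4 held 33.2%, 21.9% and 35.9% of Bmpr1a TPM in circSlc17a5 libraries, against 7.04%, 9.90% and 11.96% in control libraries (adjusted p = 0.171 by edgeR and 1.13e-06 by DESeq2). Skil transcript XM_006535427.4 held 56.6%, 60.3% and 65.0% in circSlc17a5 libraries, against 73.5%, 95.3% and 89.1% in control libraries (adjusted p = 0.175 by edgeR and 3.09e-05 by DESeq2). For Smad3 transcript XM_006510821.4 the shares were 9.39%, 38.0% and 43.7% in circSlc17a5 libraries, against 61.6%, 92.9% and 77.6% in control libraries (adjusted p = 0.316 by edgeR and 0.0397 by DESeq2). These 4 genes had no overlap between the groups in the share given, and none of them passed the test as a gene. They were chosen after their values were seen. Of the called gene Ltbp3, transcripts XM_017318072.2 and XM_006531670.3 had log2 fold changes of -1.32 and -1.60 (DESeq2 adjusted p = 4.49e-10 and 0.000261). Its transcript with the largest share, XM_017318071.2, had -0.26 (DESeq2 adjusted p = 0.421), and its other tested transcripts moved in both directions. For Smad9, transcript NM_019483.5, with the larger share, had -0.27 (DESeq2 adjusted p = 0.567).

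**Figure D5:**
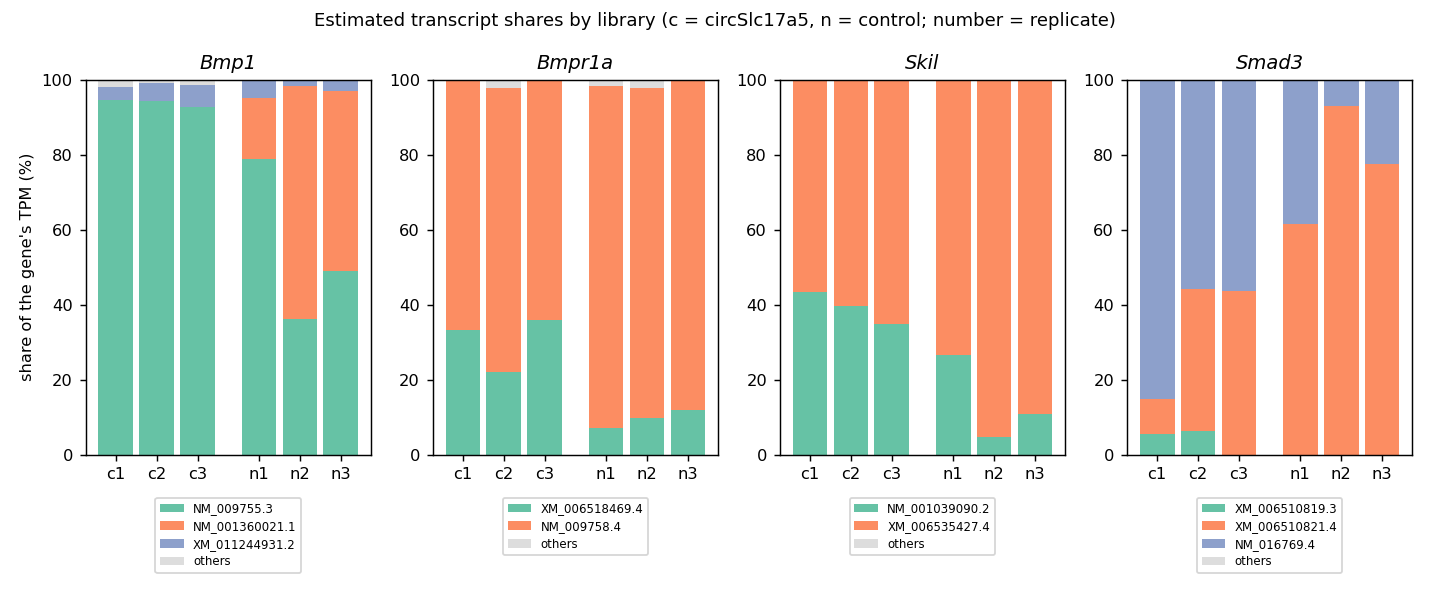
Estimated shares of each gene's TPM taken by its transcripts in every library, for Bmp1, Bmpr1a, Skil and Smad3, with circSlc17a5 libraries (c1 to c3) left of control libraries (n1 to n3). The Bmp1 transcript NM_001360021.1 is at 0% in all circSlc17a5 libraries, and the Bmpr1a transcript XM_006518469.4 takes 21.9% to 35.9% in circSlc17a5 libraries and 7.04% to 11.96% in control libraries.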

How the data were processed

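RNA was sequenced from 6 libraries, 3 of bEND.3 cells stably expressing circSlc17a5 and 3 of cells with an empty vector. Per the labels' protocols, TRIzol was used to extract the RNA and a SMARTER mRNA-Seq kit to prepare it for sequencing. The authors deposited expected counts, which need not be whole, with FPKM and TPM values scaled by length, for genes and transcripts. A further table deposited by the authors gives log2 fold changes, p-values and q-values from DESeq2, per the file headers. HISAT2 2.0.4, Bowtie2 2.2.5 and RSEM 1.2.12 are named in the submitters' processing notes, with no roles. No genome build is given in the sources used here. All 45 pathway genes of the table matched RefSeq (GRCm38.p6) by gene ID, 32 with the same start and end within 1 base. Positions of genes are those of the files.

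Expected counts were rounded, low genes were removed by filterByExpr, and the groups were compared by the two-sided quasi-likelihood test of edgeR 4.0.16 in R 4.3.3, after TMM scaling. P-values were adjusted by Benjamini-Hochberg over all tested genes, and the tests were checked on simulated counts. The SE was taken as the size of the log2 fold change over the root of its F statistic. CPM values were scaled by TMM and fold changes are circSlc17a5 over control. With 3 libraries per group the test rests on the spread shared across genes. Ratios of summed counts have exact (binomial) 95% intervals. The GC and length offset was fitted with mgcv 1.9.3. Alternatives were DESeq2 1.42.0, limma-voom and limma on log2(FPKM + 1) and log2(FPKM + 0.1) (limma 3.58.1), RLE scaling, no filter, each library left out, and a replicate block. DESeq2 and limma-voom on transcripts were added after seeing the data. Pathway genes and the lists of other genes were chosen with earlier results of these data known. For each list of other genes, up to 2 risen and 2 fallen genes with the smallest adjusted p were named; Snai1 was added after its value was seen, and some genes are not reported here. Pathway genes were named where called, where their role held no called gene, or where they had the highest TPM of their role; further uncalled ones were added after their values were seen. A gene table of 15399 entries left 1 without annotation, which was not used.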

Additional observations from a re-analysis of the deposited data

How the results depend on the processing

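Over the 40 pathway genes no log2 fold change reversed a call under any setting run. Counts of risen and fallen genes stayed within 1.5 times the reported 6 and 8 under DESeq2, RLE scaling, limma-voom, no filter, the offset for GC content and length, and without control library 1 and circSlc17a5 library 2 together. On FPKM values 7 rose and 5 fell with a pseudocount of 1, and 7 rose and 5 fell with 0.1, where 38 of the 40 genes passed the filter. The share of all genes called on FPKM values is not given here. With 1 library left out the number of risen genes ranged from 3 to 10, that of fallen genes from 3 to 12, and that of all called genes from 462 to 4699. These counts of risen genes include Fst, which was called in all 6 of those fits. Fst passed the filter on low counts there only through its circSlc17a5 libraries, so its calls are no added support. Among the 40 genes alone 2 to 9 rose. All losses came with a circSlc17a5 library or control library 2 or 3 left out, and 7 further genes of the 40 passed without control library 1. Correlations of deviations between same-numbered libraries were 0.219, 0.0678 and 0.0649, and those between differently numbered ones ran from -0.314 to 0.310. With 3 libraries per group these values cannot decide whether replicate numbers pair the libraries. With the replicate number as a block 9 pathway genes rose, 13 fell and 4429 genes were called in all. Of pathway transcripts, 17 were called by DESeq2, against 3418 of all 28266 tested transcripts, and 0 by edgeR under each of its settings. The cause of these shifts was not tested. Depth limits Tgfb2, Acvrl1, Fst, Bmper, Grem1, Bmp4, Inhba and Ltbp2, which had few counts per library.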
